A study of Glycine max with 8 samples.

Results

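Open chromatin of soybean leaf and seed was compared through the MNase hypersensitive sites listed for these tissues, in 4 of the 8 libraries of the series. Micrococcal nuclease (MNase) cuts exposed DNA, and a light digestion releases short fragments from stretches that are not wrapped in a stable nucleosome, such as promoters and other regulatory DNA bound by proteins. In soybean the gene-rich chromosome ends flank long, repeat-rich middles around the centromeres, so sites of open chromatin are not spread evenly. Both tissues came from the cultivar Williams 82 raised under glass, where days of 12 h at 28 °C alternated with nights of 12 h at 25 °C. The leaf libraries were made from trifoliate leaves of seedlings at stage V2, a young vegetative stage, starting from 0.5 g of powder. The seed libraries were made from seeds of plants at stage R4, when pods have formed, starting from 1 g of powder. The seed records give R4 and the other records give R1 for the seed plants, and the seed records were followed. Tissue therefore differed together with plant stage and with the amount of powder, and these cannot be told apart. Nuclei of all libraries were fixed with formaldehyde and digested, and DNA under 100 bp was sequenced. Each tissue had 2 libraries, and the labels do not say whether they came from separate plants.

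The members were found by position alone. The reproducible regions of a tissue are the stretches of at least 20 bp that sites of both its libraries cover. A region is called shared when it meets, by at least 1 bp, a reproducible region of the other tissue, and leaf-only or seed-only when it meets no site in either library of the other tissue. The remaining regions, which meet a site of the other tissue but no reproducible region of it, are called partly met. The 4 lists hold 295790 of the 442104 sites of the series and gave 61056 reproducible regions in leaf and 47979 in seed, which merged into 75757 regions. No gene names could be attached, and the labelled tissues could not be checked against marker genes, so regions are given by chromosome, start and end, counted from 1 in the coordinates of the lists, whose genome build the sources used here do not name.

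Leaf 1 listed 75471 sites and leaf 2 listed 74278, and seed 1 listed 82798 and seed 2 listed 63243. They covered 17.3 and 16.3 Mb in leaf, and 17.1 and 11.7 Mb in seed, of a span of 948.9 Mb. The seed lists differed more from each other than the leaf lists did, and the mean covered length was 16.8 ± 0.703 Mb (SD, n = 2) in leaf and 14.4 ± 3.82 Mb (SD, n = 2) in seed. Neighbouring leaf sites were a median of 3668 and 3716 bp apart. Neighbouring seed sites were 3506 and 4946 bp apart. Seed 2, the shortest list, also had the widest spacing. The lists give no reads, so read depth is unknown.

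Most regions of seed were also open in leaf, whereas leaf had many regions that only 1 seed library listed. Of the seed regions, 32842 were shared (68.5%, 95% Wilson interval 68.0 to 68.9), 6113 were partly met (12.7%) and 9024 were seed-only (18.8%, 18.5 to 19.2). Of the leaf regions, 31578 were shared (51.7%, 51.3 to 52.1), 17905 were partly met (29.3%) and 11573 were leaf-only (19.0%, 18.6 to 19.3). By this definition, the leaf-only and the seed-only share of a tissue were within 1 percentage point of each other. The tissues differed in the shared and the partly met class. If only reproducible regions of the other tissue exclude a region, the partly met regions count as single-tissue too. That gave 29478 of the 61056 leaf and 15137 of the 47979 seed regions. The intervals given cover counting error only. Of the partly met leaf regions, 14617 (81.6%) met seed 1 alone and 2857 (16.0%) met seed 2 alone, so that most of this class rested on the longer seed list. The partly met seed regions were split more evenly, with 3461 meeting leaf 1 alone and 2574 meeting leaf 2 alone.

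The counts of regions of a single tissue depend on the libraries, though not equally on each. Without leaf 1 the leaf-only count was 19070, without leaf 2 it was 18805, without seed 1 it was 26190 and without seed 2 it was 14430. The seed-only count was 19065 without seed 1, 23579 without seed 2, 12485 without leaf 1 and 11598 without leaf 2. With a library left out, fewer sites have to match or can exclude a region, so these counts rise by construction. Absence from a list means only that no site was called there, at a threshold that is not stated. Of the leaf-only regions, 1048 (9.06%) were pieces of a leaf site that touches a seed site outside the piece, and of the seed-only regions 754 (8.36%).

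**Figure D1:**
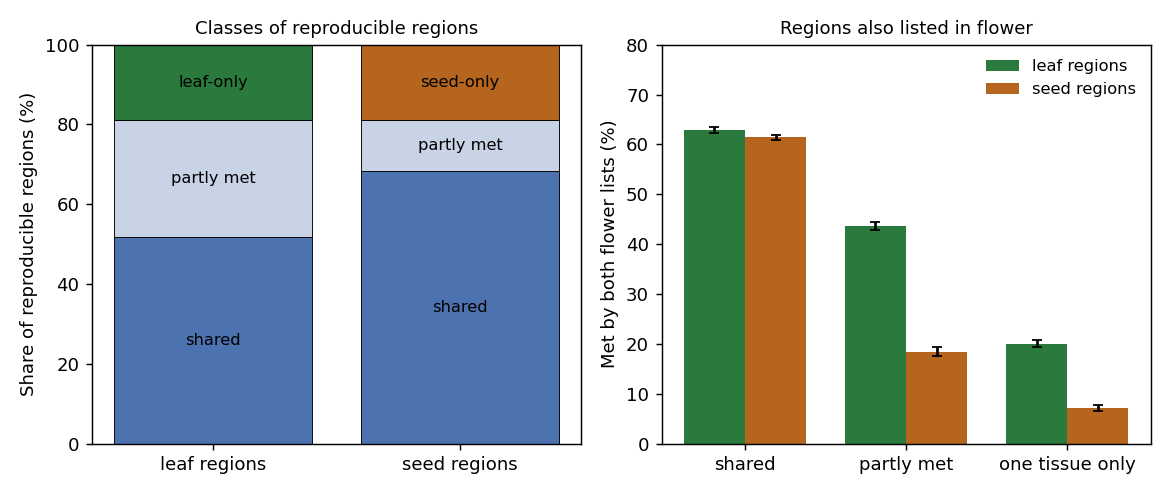
The left panel plots the share of reproducible regions of leaf and of seed (y axis, %) that were shared, partly met or of that tissue only. The right panel plots the share of each class that both flower lists met (y axis, %; bars are shares and error bars are 95% Wilson intervals); leaf-only regions stood at 20.1% and seed-only regions at 7.13%.

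Shared regions mostly paired 1 leaf region with 1 seed region. They are defined by overlap, so their close positions are given by the choice. Of the 31142 merged shared regions, 29148 (93.6%) held a single leaf and a single seed region, 1564 (5.02%) held 1 leaf region and several seed regions, and 365 (1.17%) held several leaf regions and 1 seed region. Of 33278 overlapping pairs, the leaf region was the longer in 23211 (69.7%) and the seed region in 9925 (29.8%). The median width was 220 bp in leaf and 168 bp in seed, with a median overlap of 138 bp. The seed region lay wholly inside the leaf region in 12227 pairs (36.7%), and the leaf region inside the seed region in 4466 (13.4%). Seed 2 sites were narrow in general, and an intersection can be no wider than the narrower site, so these widths depend on seed 2.

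At 26979 regions every one of the 4 lists held exactly 1 site, which allows the libraries to be compared site by site. The sites of a region were joined by overlap, so distances are short by construction and only their order between libraries is read. The median distance between the site midpoints was 16.0 bp for leaf 1 and leaf 2, and 28.0 bp for seed 1 and seed 2. Between tissues it was 25.5 and 34.0 bp for leaf 1 with seed 1 and seed 2, and 26.5 and 34.5 bp for leaf 2 with seed 1 and seed 2. Leaf and seed 1 sites were thus centred as closely as the seed libraries themselves. Score ranks showed the same pattern across these 26979 regions, with a Spearman coefficient of 0.72 for the leaf libraries, 0.43 for the seed libraries, 0.45 and 0.40 for seed 1 with leaf 1 and leaf 2, and 0.22 for seed 2 with either. These coefficients describe regions of the same libraries and carry no p-value, and score rises with width within each list (Spearman 0.71 and 0.68 in leaf, 0.60 and 0.51 in seed).

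The longest shared regions had nearly equal extents in leaf and seed. On chromosome 15, the region from 19588801 to 19592289 was covered by sites of 3471 and 3473 bp (leaf) and of 3490 and 3496 bp (seed). Its neighbour from 19586846 to 19588507 had sites of 1671, 1652, 1660 and 1658 bp in leaf 1, leaf 2, seed 1 and seed 2. The region on chromosome 19 from 5356265 to 5357518 had sites of 1256 and 1260 bp (leaf) and of 1245 and 1244 bp (seed). Flower and root listed sites of 1222 to 3481 bp at these 3 regions, so they do not distinguish leaf from seed.

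The next 2 by length lay a few kb apart near the end of chromosome 12, and their shape differed between libraries. The region from 39187422 to 39188569 was a single site of 1151 and 1159 bp in seed and of 1147 bp in leaf 2, but 2 sites in leaf 1, and 3 and 4 sites in the flower lists. The region from 39191632 to 39192762 was a single site of 1148 bp in leaf 1 and of 1129 and 1123 bp in seed, and 2 sites in leaf 2. By rank, the region on chromosome 13 from 7359291 to 7359561 led, at percentile 100 in leaf 1, seed 1 and seed 2 and 99.999 in leaf 2. This region had sites of 274 and 781 bp (leaf) and of 248 and 253 bp (seed). It was followed by the region on chromosome 19 from 20657855 to 20658501, whose sites were 647 and 654 bp (leaf) and 644 bp (seed 1), while seed 2 split it into 2 sites. The remaining regions named by rank were the 3 already described.

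Site widths at these 26979 regions were then compared between tissues, after the median width of each library (leaf, 246 and 233 bp; seed, 240 and 194 bp) had been removed. No region passed (limma with Benjamini-Hochberg adjustment, 0 wider in leaf and 0 wider in seed, 0% of those tested), and the smallest adjusted p was 0.121. At an unadjusted p below 0.05 there were 4356 regions. With the medians removed, both leaf values lay above both seed values at 6352 regions (23.5%) and below them at 6955 (25.8%). These are widths relative to each library and not widths in bp. With the medians left in, the median log2 difference over regions was 0.14 (leaf minus seed). The count depended on single libraries: without seed 1, 889 regions passed as wider in leaf and 128 as wider in seed, without leaf 1 16 and 30, and without leaf 2 7 and 28.

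The regions with the largest differences are given as examples, chosen after their values had been seen. On chromosome 12, from 10088045 to 10088672, the sites were 628 and 609 bp (leaf) and 133 and 132 bp (seed). On chromosome 14, from 43123286 to 43123969, they were 684 and 599 bp (leaf) and 144 and 100 bp (seed). The opposite was seen on chromosome 17 from 23992241 to 23992824, with 120 and 117 bp (leaf) and 501 and 550 bp (seed). On chromosome 2, from 10885375 to 10885870, the widths were 112 and 143 bp (leaf) and 492 and 467 bp (seed). The limma adjusted p was 0.121 for each of these 4.

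Regions of a single tissue were narrower and ranked lower than shared ones. Leaf-only regions had a median width of 134 bp against 215 bp for shared leaf regions, and seed-only regions 118 bp against 168 bp for shared seed regions. Leaf-only sites had a median score percentile of 36.9 in leaf 1 and 37.2 in leaf 2, against 71.7 and 70.6 for shared regions. Seed-only sites stood at 42.6 in seed 1 and 46.2 in seed 2, against 74.2 and 63.0 for shared regions. Seed 2 separated the classes least. A wide region has more bases that can meet a site of another list, and the part of width in this order was not tested.

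The share of regions listed in a single tissue declined steadily with rank. Among leaf regions whose lower percentile in the 2 libraries was at most 10, 40.8% were leaf-only and 27.2% were shared, and among those above 90, 0.44% were leaf-only and 89.8% were shared. For seed the corresponding values were 34.2% and 48.9% at the bottom and 2.44% and 93.4% at the top. In absolute numbers, 19 leaf-only and 74 seed-only regions stood above percentile 90 in both libraries of their tissue, out of 4312 leaf and 3039 seed regions that did. Width behaved alike: of the leaf regions of at least 400 bp, 81 of 3269 (2.48%) were leaf-only, and of the seed regions, 6 of 529 (1.13%) were seed-only.

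**Figure D2:**
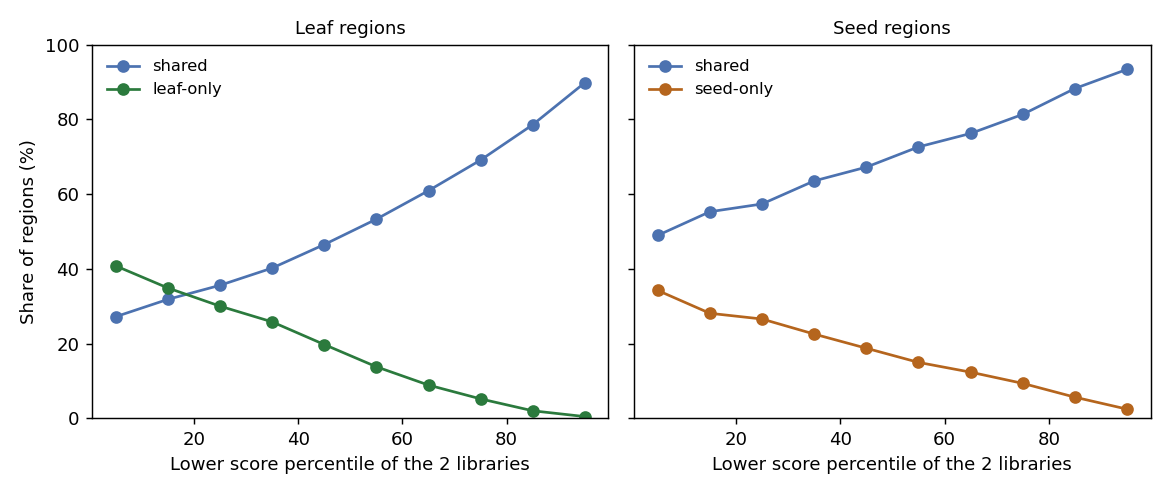
The share of reproducible regions (y axis, %) that were shared or of a single tissue is plotted against the lower of the 2 score percentiles of the region (x axis, in steps of 10 percentiles), for leaf on the left and seed on the right. The leaf-only share runs from 40.8% at the lowest scores to 0.44% at the highest, and the seed-only share from 34.2% to 2.44%.

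The longest leaf-only region lay on chromosome 9 from 41498521 to 41499260. Its sites spanned 740 bp in leaf 1 and 859 bp in leaf 2, at percentiles 80.8 and 79.9, and flower held shorter sites of 168 and 360 bp there. On chromosome 10, the region from 39051107 to 39051804 had leaf sites of 698 and 881 bp and no site in seed, flower or root. The region on chromosome 16 from 1601128 to 1601803 had sites of 676 and 848 bp, which ranked far apart, at percentile 35.7 in leaf 1 and 77.1 in leaf 2. On chromosome 2, from 5416601 to 5417275, the leaf sites measured 706 and 678 bp, and on chromosome 6, from 10522566 to 10523236, they measured 683 and 681 bp. The last of these lay only 504 bp from a shared region, whereas the other 4 lay from 4589 bp (chromosome 2) to 16532 bp (chromosome 16) away. Flower 2 listed a site at the region on chromosome 16, flower 1 at that on chromosome 2, and both flower lists at that on chromosome 6.

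By rank, other leaf-only regions led, 4 of them between 122 and 146 bp wide and the fifth by rank, on chromosome 20 from 280291, with wider sites of 303 and 314 bp. The region on chromosome 9 from 33306534 to 33306679 stood at percentiles 99.7 and 99.4 in the leaf lists with sites of 153 and 163 bp. Flower 1 listed a site there. The region on chromosome 11 from 31306552 to 31306689 stood at percentile 98.3 in leaf 1 and higher in leaf 2, with no site in any flower or root list. Those on chromosome 20 from 14534732 to 14534862, on chromosome 18 from 22094961 to 22095082 and on chromosome 20 from 280291 to 280590 all had sites in both flower lists. At the first of them the flower percentiles were 99.7 and 99.8, and both root libraries listed a site too, so that seed was the tissue without a site.

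Seed-only regions were shorter at the top of the list. The longest lay on chromosome 12 from 6348031 to 6348524, with sites of 504 and 495 bp at percentiles 91.4 and 93.0 in the seed lists, and flower held sites of up to 196 and 195 bp there. The region on chromosome 10 from 47770817 to 47771280 had sites of 464 and 560 bp, and that on chromosome 1 from 30013094 to 30013532 had sites of 446 and 443 bp. The latter lay in the middle of its chromosome, 88361 bp from the nearest shared region. On chromosome 19, from 435440 to 435850, the seed sites measured 415 and 427 bp, and on chromosome 13, from 40773003 to 40773410, they measured 419 and 441 bp. Flower and root listed no site at the regions on chromosomes 10, 1 and 19, while both flower lists and root 2 held a site at that on chromosome 13.

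The highest-ranked seed-only regions had no site in flower. They lay on chromosome 9 from 44781792 to 44781906, chromosome 6 from 15993099 to 15993232, chromosome 8 from 39921395 to 39921645, chromosome 8 from 47836994 to 47837172 and chromosome 13 from 32257078 to 32257218. Their lower percentile in the 2 seed lists ran from 98.8 to 99.2. Both root libraries listed a site at the regions on chromosomes 9 and 6, and root 1 at the region on chromosome 13. The second region on chromosome 8 sits at the very end of the listed span of that chromosome.

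Flower and root, which took no part in the choice of members, showed different shares for the 2 sets. Both flower lists met 2322 of the 11573 leaf-only regions (20.1%, 95% Wilson interval 19.3 to 20.8) and 643 of the 9024 seed-only regions (7.13%, 6.61 to 7.67). The leaf-only share was the higher on 20 of 20 chromosomes, ranging from 16.5% to 24.6% against 5.11% to 9.42%. It was also higher at every width: 10.0% against 4.68% for regions of 20 to 99 bp, and 34.3% against 15.9% for regions of 200 bp and over. Over all reproducible regions the shares were 49.1% in leaf and 45.7% in seed. Among partly met regions the flower shares were 43.6% in leaf and 18.4% in seed. Shared regions hardly depended on the side from which they were counted, with 62.9% of the leaf and 61.4% of the seed regions met by both flower lists. The values depend on list length. With each leaf and seed list cut to its 63243 highest-scoring sites, both flower lists met 27.7% of leaf-only and 10.2% of seed-only regions. These lie outside the intervals above, which cover counting error only. Chromosomes of the same 4 libraries are not replicates, so no p-value is given.

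Root showed the opposite order, on far shorter lists that include sites under 100 bp. Over all reproducible regions, root met 15.1% in seed and 13.6% in leaf, the same order as in the single-tissue sets, and over shared regions 18.9% in seed and 20.4% in leaf. A root library met 529 seed-only regions (5.86%, 5.40 to 6.37) and 427 leaf-only regions (3.69%, 3.36 to 4.05). For regions of 200 bp and over the shares were 11.2% for seed-only and 4.09% for leaf-only, and for those of 20 to 99 bp they were 2.94% and 2.62%. With the leaf and seed lists cut to equal length, the shares over all widths were 7.32% for seed-only and 4.46% for leaf-only. No site in flower or root was found at 5871 leaf-only regions (50.7%) and 6297 seed-only regions (69.8%). Flowers came from plants in a field, so growth conditions differ along with tissue there.

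Leaf-only regions outnumbered seed-only ones on 18 of 20 chromosomes, as leaf had more regions in all. The ratio was 1.28 for regions of a single tissue and 1.27 for all reproducible regions. Taken as a share of the tissue's regions, leaf-only was above seed-only on 11 chromosomes and below it on 9. The leaf-only share ran from 16.7% on chromosome 14 to 20.5% on chromosome 13, and the seed-only share from 15.9% on chromosome 13 to 21.3% on chromosome 1. In numbers, chromosome 13 held 915 leaf-only and 502 seed-only regions, a ratio of 1.82, followed by chromosome 11 with 619 and 366 (1.69) and chromosome 17 with 650 and 413 (1.57). The exceptions were chromosome 1, with 504 and 532 (0.947), and chromosome 14, with 415 and 433 (0.958). Seed-only density varied little, from 8.27 regions per Mb on chromosomes 4 and 16 to 11.8 on chromosome 2. Leaf-only density ranged more widely, from 8.47 on chromosome 14 to 19.9 on chromosome 13.

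The lists themselves showed the same order when each chromosome's sites were taken as a share of the list. Both leaf shares exceeded both seed shares on 7 of 20 chromosomes (35.0%), namely 5, 6, 8, 10, 11, 13 and 17, and both seed shares exceeded both leaf shares on 10 (50.0%), with overlap on chromosomes 2, 3 and 4. Chromosome 13 took 7.25% and 7.22% of the leaf sites, and 6.86% and 6.54% of the seed sites. Chromosome 14 took 4.00% and 4.08% of the leaf sites, and 4.29% and 4.42% of the seed sites. These differences are small beside the differences between chromosomes, and since the shares of a list sum to a fixed total, a gain on some chromosomes is a loss on others.

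**Figure D3:**
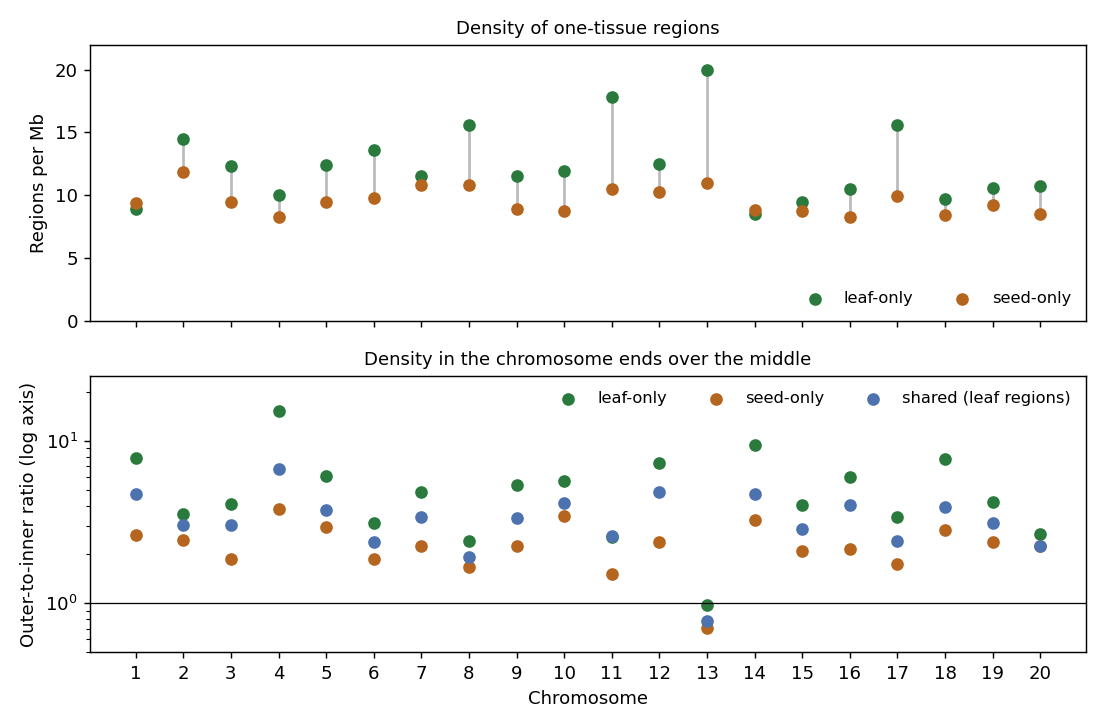
The upper panel plots leaf-only and seed-only regions per Mb (y axis) for each of the 20 chromosomes (x axis). The lower panel plots, on a log axis, the density in the outer 20% at each end over that in the middle 60% for leaf-only, seed-only and shared regions, with a line at 1; leaf-only regions lie above seed-only regions on 20 of 20 chromosomes.

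Within chromosomes, leaf-only regions crowded towards the ends and seed-only regions reached farther into the middle. Of the leaf-only regions, 22.1% and 21.6% lay in the first and last 10% of the chromosome span, against 14.9% and 16.0% of the seed-only regions. Taken against all regions of the tissue, leaf-only regions made up 21.1% and 20.5% at the ends and between 14.2% and 16.4% in the 4 bins from 30% to 70% of the span. Seed-only regions ran the other way, at 15.7% and 16.5% at the ends and between 21.4% and 23.0% in those bins. The number of leaf-only per seed-only region accordingly went from 1.90 in the first bin to 0.647 in the bin from 60% to 70%. The median distance from the nearer chromosome end was 5.48 Mb for leaf-only, 6.47 Mb for shared and 7.74 Mb for seed-only regions.

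**Figure D4:**
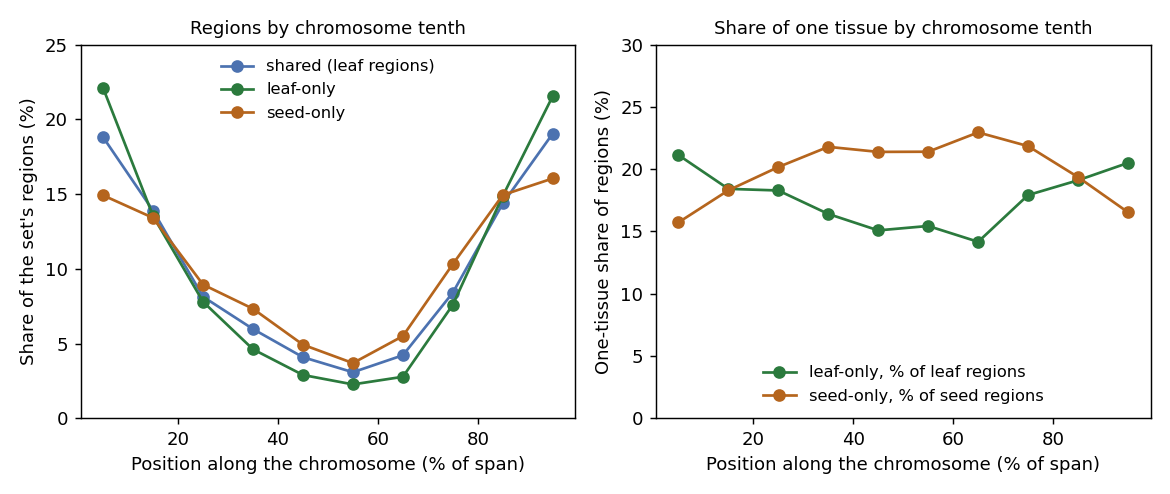
The left panel plots, for 10 bins along the chromosome span (x axis, %), the share of shared, leaf-only and seed-only regions in each bin (y axis, %; all chromosomes pooled). The right panel plots leaf-only regions as a share of leaf regions and seed-only regions as a share of seed regions (y axis, %): the leaf-only share is highest at the ends, at 21.1% and 20.5%, and the seed-only share peaks at 23.0% from 60% to 70%.

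Density in the outer 20% at each end over that in the middle 60% was 3.87 for leaf-only, 2.93 for shared leaf, 2.92 for shared seed and 2.19 for seed-only regions. Leaf-only regions exceeded shared ones on every chromosome but 11 (2.57 against 2.59), and seed-only regions lay below shared ones on every chromosome but 20 (2.27 against 2.26). Chromosome 13, where sites do not favour the ends, kept the order, at 0.973 for leaf-only and 0.702 for seed-only regions. Over whole lists, the log2 ratio was 1.66 ± 0.0225 (SD, n = 2) in leaf and 1.45 ± 0.0844 (SD, n = 2) in seed, a difference of 0.21. Both leaf libraries lay above both seed libraries in the pooled ratio, and on 19 of 20 chromosomes. An exact two-sided permutation test of 2 libraries against 2 gave p = 0.333, the smallest it allows. Within seed, the shorter list was the flatter, at 1.39 in seed 2 against 1.51 in seed 1, and whether list length bears on the difference between tissues was not tested beyond lists of equal length, where it was 0.22.

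To find where the tissues differed, sites were counted in windows of 1 Mb, scaled to the length of each list, and compared on the log2 scale with limma. Of 850 windows with a mean of at least 10 sites, 86 held more leaf sites (10.1%) and 167 more seed sites (19.6%) at an adjusted p below 0.05. The leaf and seed libraries did not overlap in 207 windows where leaf was higher (24.4%) and 389 where seed was higher (45.8%). Of all 850 windows, 469 lay in the inner 60% of a chromosome and 381 in the outer parts. Of the 167 windows with more seed sites, 125 were inner and 42 outer. Of the 86 windows with more leaf sites, 20 were inner and 66 outer.

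The difference followed how rich a window was. In the 367 windows with a scaled mean of up to 50 sites, the median log2 difference (leaf minus seed) was -0.34, with 106 windows called for seed and 5 for leaf. In the 182 windows with over 150 sites it was 0.17, with 69 called for leaf and 0 for seed. The median over all windows was -0.11, and scaling by the median ratio of the windows moved it to 0.0072 and turned the split to 145 windows for leaf and 77 for seed. The scaling thus sets how many windows fall on each side, and the ordering by richness is a relative one.

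The number of calls rested on few libraries. Without leaf 1 there were 25 windows for leaf and 43 for seed, without leaf 2 there were 6 and 29, without seed 1 there were 179 and 261, and without seed 2 there were 102 and 110. With the 63243 highest-scoring sites of every list, limma called 0 windows in either direction, while 305 of 826 had an unadjusted p below 0.05.

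**Figure D5:**
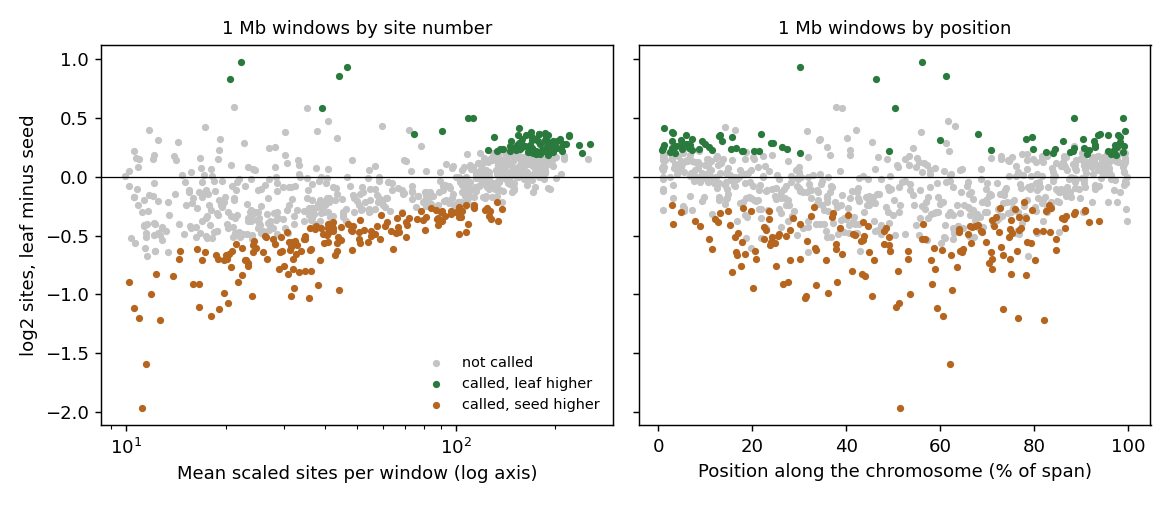
Each point is a window of 1 Mb, placed by its log2 difference in scaled sites (y axis, leaf minus seed) and by its mean scaled number of sites (left, log axis) or its position along the chromosome (right, % of span). Windows called for seed lie among those with few sites and towards the middle, while 69 of the 86 windows called for leaf hold over 150 sites.

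Among the windows called for seed in which the libraries did not overlap, the largest differences were found in sparse windows. The filter took the mean of the 4 libraries, so windows with under 10 sites in each leaf list could pass through their seed counts. Of the windows named below, all but that on chromosome 2 passed in this way. With so few leaf sites, a small difference in sites gives a large log2 difference. On chromosome 10, the window from 26000001 to 27000000 held 2 and 8 leaf sites against 18 and 16 seed sites, a log2 difference of -1.97 ± 0.38 (SE; limma adjusted p = 0.00184). On chromosome 16, the window from 23000001 to 24000000 held 6 and 5 against 17 and 17 sites, a difference of -1.60 ± 0.27 (limma adjusted p = 0.00127). The windows on chromosome 15 from 42000001 (8 and 7 against 19 and 16), on chromosome 14 from 37000001 (6 and 7 against 15 and 15) and on chromosome 2 from 29000001 (11 and 11 against 28 and 22) differed by -1.21, -1.20 and -1.19. All of them but that on chromosome 15 lay in the inner part of the chromosome. Their direction held under every setting run on them, but they were chosen with both seed libraries above both leaf libraries. Leaving out a library or adding a replicate block could thus not reverse it. With lists of equal length, the windows on chromosomes 10, 16 and 14 were no longer tested. Those on chromosomes 15 and 2 did not pass (limma adjusted p = 0.0891 and 0.0936).

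Windows called for leaf differed less. The window on chromosome 20 from 14000001 to 15000000 held 43 and 83 leaf sites and 41 and 22 seed sites, a log2 difference of 0.93 ± 0.21 (limma adjusted p = 0.00408). Here leaf 2 listed far more sites than leaf 1, and without leaf 2 the difference was 0.45 with an adjusted p of 0.269. The next were the windows on chromosome 16 from 37000001 (135 and 123 against 109 and 71) and from 33000001 (126 and 141 against 109 and 76), each with a difference of 0.50, on chromosome 17 from 1 (183 and 175 against 164 and 102; 0.42) and on chromosome 7 from 44000001 (104 and 104 against 89 and 66; 0.39). These 4 lay in the outer parts of their chromosomes. Without leaf 2 the window on chromosome 16 from 33000001 no longer passed (limma adjusted p = 0.0768), and that on chromosome 7 passed neither without leaf 1 (0.107) nor without leaf 2 (0.141). With lists of equal length none of the 5 windows for leaf passed, with limma adjusted p from 0.0891 to 0.159. In each of these 4 seed 2 held fewer sites than seed 1, as it does over the whole list.

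The inner windows with the largest excess of leaf sites were also dense in root sites. Besides the window on chromosome 20 they lay on chromosome 12 from 22000001, chromosome 6 from 31000001, chromosome 19 from 23000001 and chromosome 7 from 22000001. Leaf 1 held 18, 29, 19 and 34 sites there and leaf 2 held 43, 92, 35 and 63, while seed 1 held 20, 34, 21 and 38 and seed 2 held 9, 22, 9 and 23. The leaf 1 counts were close to those of seed 1, so the libraries of the tissues overlapped and the excess lay in leaf 2. Root 1 listed 135, 179, 65 and 143 sites in these 4 windows and root 2 listed 100, 132, 52 and 106, out of whole lists of 15185 and 18957 sites. Whether what these windows share with root bears on the leaf calls was not tested.

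Leaf-only regions had closer neighbours than seed-only regions. The median gap to the nearest other region was 1036 bp for leaf-only, 1550 bp for seed-only and 1607 bp for shared regions. The neighbours counted included 17905 partly met leaf and 6113 partly met seed regions, and whether these numbers set the gaps was not tested. In the outer parts the median was 1007 bp for leaf-only and 1424 bp for seed-only regions. In the inner parts it was 1104 and 1834 bp. A further leaf-only region lay within 1 kb of 2031 leaf-only regions (17.5%), and a seed-only region within 1 kb of 427 of them (3.69%). For seed-only regions the numbers were 1019 with a seed-only neighbour (11.3%) and 420 with a leaf-only neighbour (4.65%). Some neighbours are pieces of 1 site: with neighbours from the same site left out, 1383 leaf-only regions (12.0%) and 561 seed-only regions (6.22%) had a neighbour of their kind within 1 kb. Seed-only regions were the more isolated, with 465 (5.15%) over 20 kb from any other region against 239 (2.07%) of the leaf-only regions. These shares were 1.85% and 0.83% in the outer parts, and 9.97% and 5.26% in the inner parts.

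Most single-tissue regions had no neighbour of their own class. Leaf-only regions made up 15.3% of the 75757 merged regions and seed-only regions 11.9%. Which shares a random order of the classes would give was not tested, so the shares below are not read as high or low. Of the leaf-only regions, 63.9% had a region of another class on both sides, and 12.0% were in uninterrupted series of at least 3; for seed-only regions the shares were 68.6% and 9.06%. The longest leaf-only series held 7 regions over 106080 bp on chromosome 13, from 10457890 to 10563969, and another held 6 within 8555 bp on chromosome 3, from 41260841 to 41269395. In seed the longest held 6 regions, as on chromosome 7 from 9785473 to 9799769, over 14297 bp, and on chromosome 4 from 30731553 to 31138410, over 406858 bp.

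The windows with most leaf-only regions were not those with most seed-only regions, but each window named here was above the median for both kinds. The median per window was 6 leaf-only and 8 seed-only regions. The window on chromosome 6 from 3000001 held 58 leaf-only and 21 seed-only regions, that on chromosome 17 from 5000001 held 54 and 20, and that on chromosome 8 from 4000001 held 52 and 12. Most seed-only regions were found on chromosome 1 in the window from 53000001, with 33 beside 36 leaf-only regions, on chromosome 1 from 4000001, with 32 beside 11, and on chromosome 2 from 43000001, with 32 beside 28. In the window on chromosome 1 from 4000001, both seed lists held more sites (158 and 138) than both leaf lists (119 and 116). Over all 956 windows, 431 held more leaf-only and 437 more seed-only regions, and 845 held at least 1 leaf-only and 885 at least 1 seed-only region.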

How the data were processed

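The authors deposited a list of MNase hypersensitive sites for each library, with chromosome, start, end and, for leaf, flower and seed, a score that the sources used here do not define. Scores were used only to rank or filter sites within a list. Per the submitters' processing notes, Trimmomatic 0.36 and BWA 0.7.15-r1140 were among the tools. The sources used here name no site caller, threshold or genome build, and since the lists name no build, the gene table at hand was not used. Starts were taken to count from 0. Repeated lines of the root lists, 479 and 649, were removed.

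Sets were built in Python 3.11.15 with numpy 2.4.6 and pandas 2.3.3. Windows and widths were fitted with limma 3.58.1 in R 4.3.3 across all windows or regions (trend on the mean, pseudocount 0.5 site, windows with a mean of at least 10 sites), with Benjamini-Hochberg adjustment at 0.05. Both fits were run on simulated data whose planted changes and noise were set by hand and left out sparse windows. That check therefore does not vouch for the calls made here. The span of a chromosome is its last site end over all libraries. The p-values rest on 2 libraries a tissue and so reflect library spread alone, possibly technical. In limma the spread of a window or region is drawn towards that of others with a like mean. A limma p-value thus does not measure the spread of a single window or region alone. Members and lists were chosen with earlier results of these data known. Named by rule were the 5 longest and the 5 highest-ranked regions of each class, the 5 called windows with the largest difference in each direction whose libraries do not overlap, and the 3 windows with most regions of a single tissue.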

Additional observations from a re-analysis of the deposited data

How the results depend on the processing

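Directions held for the outer-to-inner difference under every alternative run (0.15 to 0.27 on the log2 scale), and for all 10 named windows. In each of these, both libraries of one tissue lay above both of the other. Leaving out a library or adding a replicate block could therefore not reverse the direction, and these settings are no support for it. With the higher-scoring sites of each list (above percentile 50), there were 28947 reproducible leaf and 21174 seed regions, 12207 shared leaf and 12507 shared seed regions, and 6841 leaf-only and 5421 seed-only regions. When only reproducible regions of the other tissue could exclude a region, 29478 were leaf-only and 15137 seed-only. With lists of equal length, median widths were 157 bp for leaf-only and 128 bp for seed-only regions (134 and 118 bp in full). Their median score percentiles, averaged over the 2 libraries, were 47.9 and 52.3 (37.0 and 44.4 in full). Leaving out 1 library, leaf-only counts ran from 14430 to 26190, seed-only from 11598 to 23579, reproducible leaf regions from 61056 to 75471, reproducible seed regions from 47979 to 82798, shared leaf regions from 34000 to 46626, shared seed regions from 35494 to 47390, windows for leaf from 6 to 179 and for seed from 29 to 261, and widths from 0 to 889 wider in leaf and from 0 to 128 wider in seed. The sites of the library left then stand for the tissue, so single-tissue counts rise by construction. Median-ratio scaling gave 145 windows for leaf and 77 for seed, windows of 2 Mb gave 51 and 103 (of 479 tested), and lists of equal length gave 0 and 0, for which the cause was not tested.

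Replicate numbers are shared by the tissues, but nothing says that they mark a batch. With the replicate block, 97 windows were called for leaf and 158 for seed, 288 regions were wider in leaf and 171 in seed, and the outer-to-inner difference of 0.21 had an exact p = 0.5. Same-numbered libraries deviated in opposite directions over windows (Pearson -0.16), and the crossed pairing, added after seeing the data, called 21 and 67 windows. Depth is unknown, so its limit cannot be stated.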
